A study of Equus caballus with 10 samples.

Results

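The genes described here encode the contractile cytoskeleton and the focal adhesions of the cell, namely the actins, the smooth muscle contractile proteins and their widely expressed relatives, the tropomyosins, the actin crosslinkers, the focal adhesion proteins, the regulators of actin and 2 intermediate filament proteins. They were chosen as a list of 47 symbols, and 46 of them were found under the listed name among the 29196 genes of the deposited table. MRTFA was not found under this name, and the values of its older symbol MKL1 are given apart and not counted among the 46. All 46 genes had reads in every library and passed the filter on low values.

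The tenocytes came from the superficial digital flexor tendon of adult horses of Thoroughbred type, and each of the 5 lines, here called lines 1 to 5, was grown from 1 donor. Each line was cultured in 3D in gels of bovine type I collagen for 14 days, in medium with fetal bovine serum, and several gels were harvested for RNA. All 10 libraries come from cultures given PF-06650833 daily at 100 nM, a compound that blocks IRAK-4, a kinase of IL-1 receptor signalling. In 5 of them (1 per line) IL-1β was also given, at 17 ng/ml every 3 to 4 days. The groups are called the inhibitor alone and added IL-1β below, the latter always in the presence of the inhibitor. Cultures without the inhibitor were not analysed here, so the comparison is that of adding IL-1β to inhibited cells and says nothing of how far the inhibitor restored a gene. The values are log2 expression after variance stabilization by the authors, with 3.43 as the value of a gene that has no reads. Between 26672336 and 35955172 reads on genes were estimated per library from the steps between low values. Gene lengths were not used, so levels are compared between libraries and not between genes.

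Tenocytes pull on collagen through actin filaments on which non-muscle and smooth muscle-type myosin move, and the force reaches the matrix through integrins and the proteins of the focal adhesion. The GTPase RHOA and its kinases ROCK1 and ROCK2 raise the phosphorylation of the myosin light chain and so the tension. Many contractile genes are transcribed by SRF, a factor that acts with the coactivators MRTFA, which responds to free actin, or MYOCD, which is known from smooth muscle, and the same genes mark the myofibroblast in healing tendon.

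With added IL-1β, DES, SYNPO2 and LMOD1, genes typical of muscle, were 7.87-fold, 7.71-fold and 3.49-fold lower than with the inhibitor alone, while RND3, an antagonist of RHOA and ROCK signalling, was 2.19-fold higher. These 4 genes were differentially expressed, that is they passed both an adjusted p of 0.05 and a log2 difference of 1 in size. The test was limma without a term for the tenocyte line, with Benjamini-Hochberg adjustment over 17992 genes. With the line as a replicate block, ACTA2 and MYOCD, both lower, passed both thresholds as well. ROCK2, MYH10, FLNC and FERMT2 also fell at an adjusted p below 0.05, by less than 1 on the log2 scale. The cytoplasmic actins ACTB and ACTG1, the GTPase RHOA and the transcription factor SRF did not pass the test.

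Of the 46 genes, 4 (8.7%) were differentially expressed, against 6.68% of all tested genes, and 8 (17.4%) had an adjusted p below 0.05, against 15.5% of all tested genes. The number of changed genes was close to the background. The 4 comprise 3 lower genes (6.52%, against 3.57% of all tested genes) and 1 higher gene (2.17%, against 3.11%). Of the 8, 7 were lower (15.2% of the 46, against 7.89% of all tested genes) and 1 was higher (2.17%, against 7.57%). Log2 fold changes were below 0 for 32 of the 46 genes (69.6%, against 50.7% of all tested genes), with a median of -0.29 against -0.0063 over all tested genes. The groups did not overlap for ROCK2, FERMT2 and RND3, 3 of the 46 genes (6.52%, against 12.7% of all tested genes). All 5 lines were lower for 11 of the 46 genes (23.9%, against 16.8% of all tested genes) and higher for 2, RND3 and TAGLN2 (4.35%, against 16%). With the tenocyte line as a replicate block, 11 of the 46 genes had an adjusted p below 0.05 (23.9%, against 22.2% of all tested genes), 10 of them lower (against 11.3% of all tested genes) and 1 higher (against 10.9%). With this block 6 were differentially expressed (13%, against 8.26%), 5 lower (against 4.25%) and 1 higher (against 4.01%). They were DES, SYNPO2, LMOD1, RND3, ACTA2 and MYOCD. All 8 genes above were among these 11, and the other 3 were ACTA2, MYL9 and MYOCD.

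**Figure D1:**
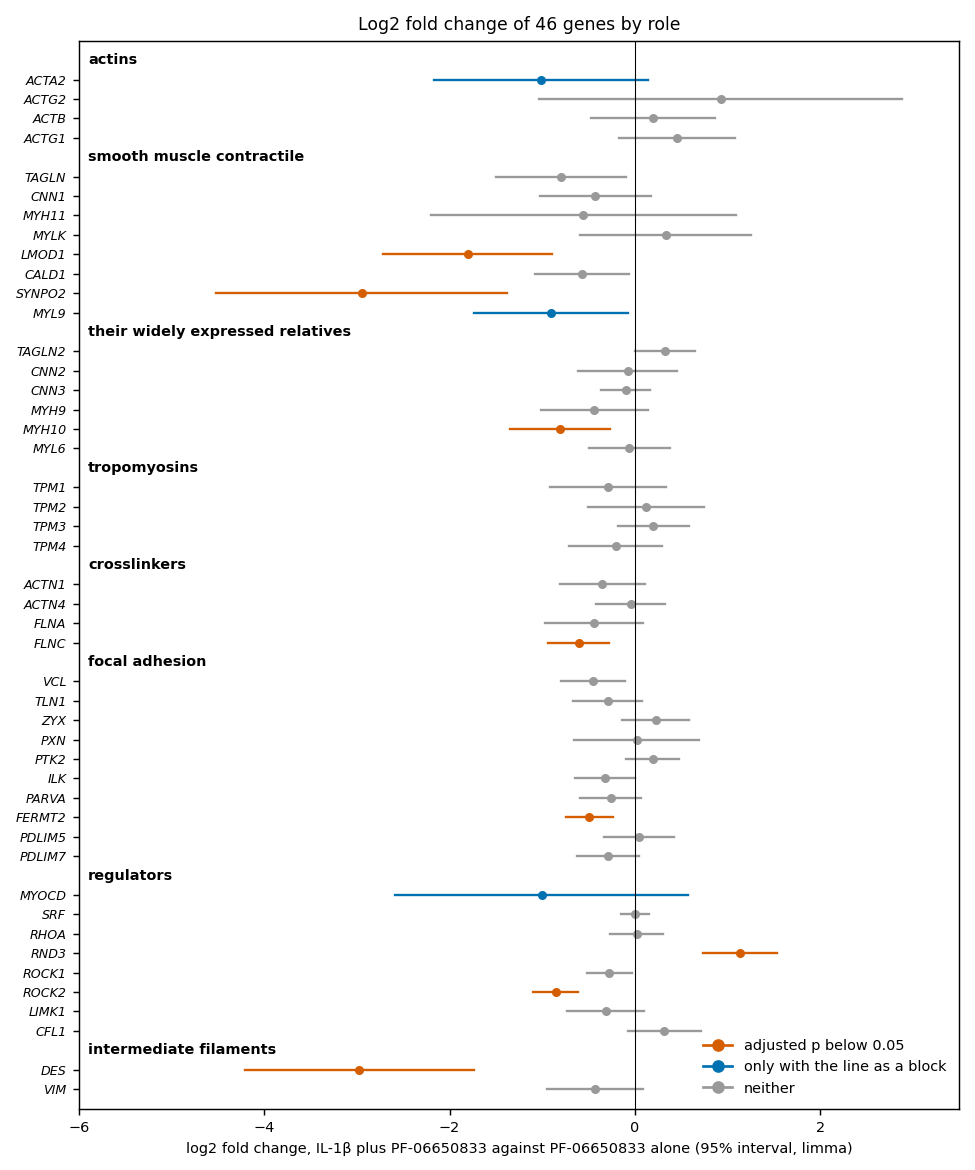
Log2 fold change of the 46 genes with added IL-1β against the inhibitor alone, with 95% intervals from limma (5 libraries per group), grouped by role. The 8 genes at an adjusted p below 0.05 are orange, the 3 genes that passed only with the tenocyte line as a block are blue, and RND3 is the 1 called gene above 0.

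Line 3 stood apart in these genes. With the inhibitor alone it had the lowest value of the 5 lines for 35 of the 46 genes, whereas it was the lowest line for 24.6% of all tested genes. In that group line 5 had the highest value for 27 of the 46 genes, against 17.5% of all tested genes. With added IL-1β line 3 was the lowest for 23 of the 46 genes, against 21.7% of all tested genes. Within line 3, 18 of the 46 genes were lower with added IL-1β and 28 were higher, with a median log2 difference of 0.16. In the other lines between 32 and 38 of the 46 genes were lower, with medians between -0.54 and -0.23. Over all tested genes the library of line 3 with the inhibitor alone correlated with the other 4 of its group at a mean of 0.973. The other libraries of that group had means between 0.976 and 0.981. With added IL-1β, lines 4 and 5 had lower means within their own group, 0.968 and 0.972. Calls that change without line 3 are given beside each gene. Line 3 was picked out after its values were seen, and it was 1 of the 5 lines that were each left out in turn. Without it, in 4 libraries per group, 13 of the 46 genes had an adjusted p below 0.05 (28.3%, against 15.7% of all tested genes), 12 of them lower (26.1%, against 8.37%), and 7 were differentially expressed (15.2%, against 7.39%). The 13 include the 8 genes called with all lines. Without line 1, 2, 4 or 5 the number was 4, 3, 8 and 3, while 7.05%, 7.23%, 14% and 7.26% of all tested genes were called.

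**Figure D2:**
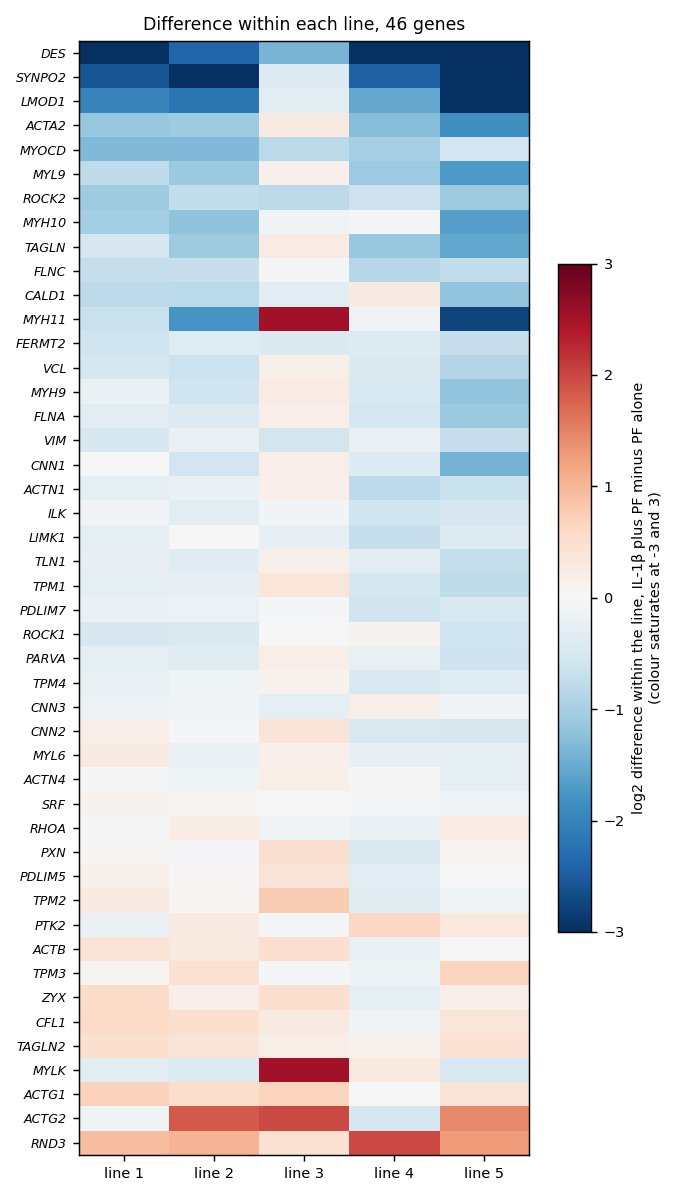
Log2 difference within each of the 5 tenocyte lines, IL-1β plus PF-06650833 minus PF-06650833 alone, for the 46 genes ordered by their log2 fold change, with lower values in blue and higher values in red. Line 3 is pale or red for MYH11, ACTA2, MYL9 and TAGLN, genes that are lower in the other 4 lines. MYH11 is also pale in line 4. ROCK2 and RND3 have 1 colour in all 5 lines.

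The steepest differences were those of muscle-type genes. DES encodes desmin, the intermediate filament protein of muscle cells. Its log2 expression was at 8.40, 9.82, 7.38, 9.16 and 10.10 in lines 1 to 5 with the inhibitor alone and at 5.10, 7.41, 5.98, 5.22 and 6.27 with added IL-1β. It was lower in all 5 lines, and the groups overlapped because line 2 with added IL-1β lay just above line 3 with the inhibitor alone. The log2 fold change of DES was -2.98 (standard error 0.56, adjusted p = 0.00546 from limma). At 16.1 to 149 normalized counts with added IL-1β, DES had the fewest reads of the 46 genes, and the deposited scale compresses differences at that level. On the scale of log2(normalized count + 1) the log2 fold change was -3.50.

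SYNPO2 encodes synaptopodin-2, a protein of actin bundles and Z-discs. It was at 10.51, 10.57, 8.29, 11.81 and 11.94 in lines 1 to 5 with the inhibitor alone and at 7.92, 6.38, 7.92, 9.37 and 6.80 with added IL-1β. All 5 lines were lower, by 5.14 on the log2 scale in line 5 but by only 0.375 in line 3. With the inhibitor alone line 3 had the lowest value of its group. SYNPO2 had a log2 fold change of -2.95 ± 0.71 (estimate ± standard error, adjusted p = 0.0182 from limma), and -3.59 without line 3 (adjusted p = 0.00717). SYNPO2 lost the call without line 1 (adjusted p = 0.0743, log2 fold change -3.04), line 2 (0.0866, -2.64) or line 5 (0.0993, -2.40).

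LMOD1, leiomodin 1, promotes the growth of actin filaments in smooth muscle. It was at 11.55, 12.16, 10.48, 12.53 and 12.86 in lines 1 to 5 with the inhibitor alone and at 9.54, 9.97, 10.15, 10.99 and 9.89 with added IL-1β. All 5 lines were lower, and line 3 with the inhibitor alone was again the lowest of its group, within the range of the libraries with added IL-1β. LMOD1 had a log2 fold change of -1.81 ± 0.41 (estimate ± standard error, adjusted p = 0.0143 from limma), and -2.17 without line 3 (adjusted p = 0.00475). Without line 1, 2 or 5, LMOD1 was at an adjusted p of 0.0638, 0.0776 and 0.0728, with log2 fold changes of -1.76, -1.71 and -1.51.

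**Figure D3:**
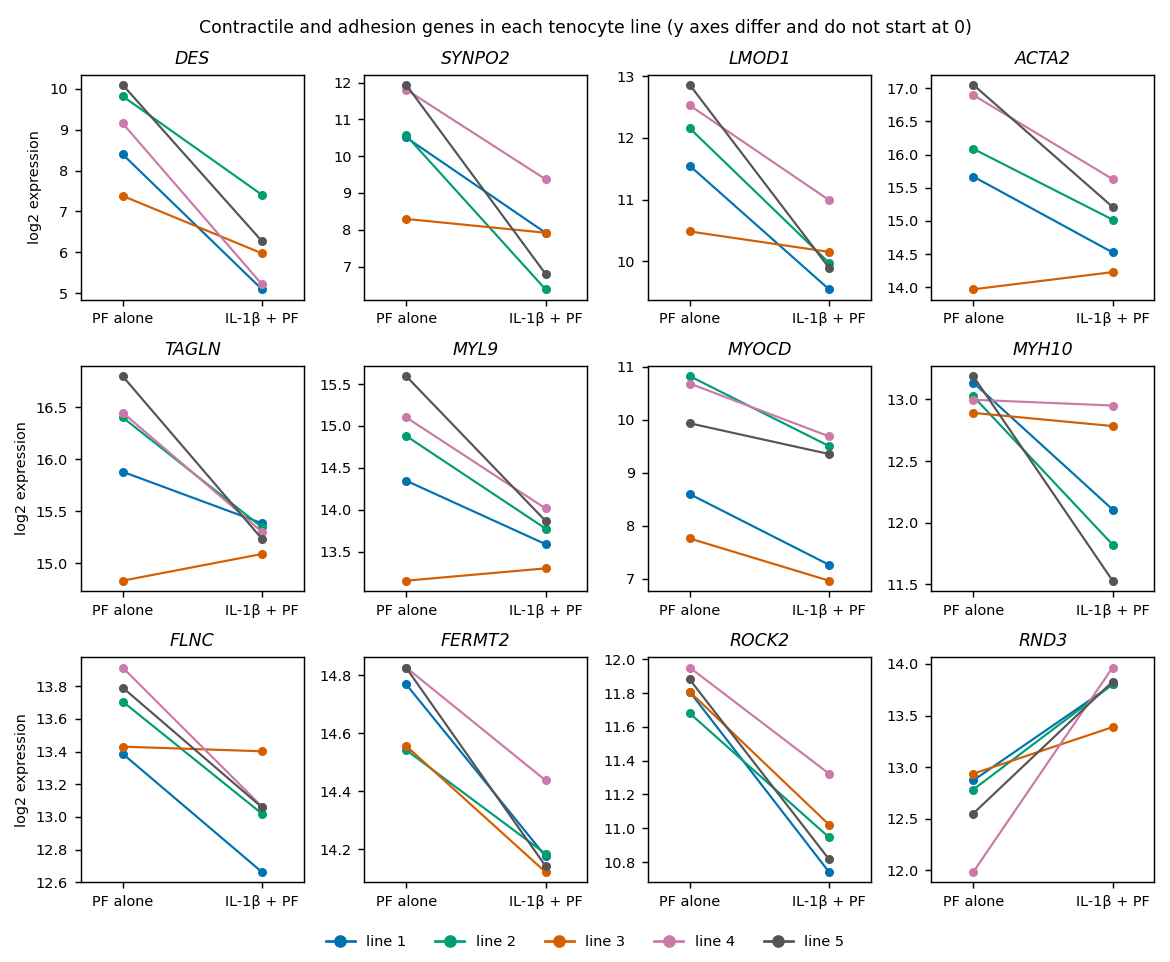
Log2 expression of 12 of the genes in each library, with the inhibitor alone (PF alone) on the left of each panel and IL-1β plus PF-06650833 on the right, and a line joining the 2 libraries of each tenocyte line. ROCK2 falls and RND3 rises in all 5 lines, whereas ACTA2, TAGLN and MYL9 are lower in 4 lines and slightly higher in line 3.

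ACTA2, TAGLN and MYL9 were each lower in lines 1, 2, 4 and 5 and higher in line 3. Of the other smooth muscle genes given below, MYH11 differed in the same directions. CNN1 was higher in line 1 as well as line 3 and MYLK in line 4 as well as line 3, while CALD1 was higher only in line 4. ACTA2, which encodes smooth muscle α-actin, was at 15.67, 16.09, 13.97, 16.90 and 17.05 in lines 1 to 5 with the inhibitor alone and at 14.53, 15.02, 14.23, 15.63 and 15.21 with added IL-1β. The 4 lines with the higher values with the inhibitor alone were lower by 1.07 to 1.84 on the log2 scale, and line 3 was higher by 0.26. The value with the inhibitor alone is itself a term of these differences. The log2 fold change was -1.01 (standard error 0.53), and the adjusted p from limma was 0.227 without and 0.0334 with the replicate block. Without line 3 the log2 fold change of ACTA2 was -1.33 (adjusted p = 0.0325). ACTA2 was called in 2 of the 15 fits with a library or a line left out. These were the fits without line 3 or its library with the inhibitor alone, and in the others the adjusted p from limma reached 0.457.

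TAGLN encodes transgelin, also called SM22, an actin-binding protein of smooth muscle. It was at 15.88, 16.40, 14.83, 16.45 and 16.80 in lines 1 to 5 with the inhibitor alone and at 15.39, 15.35, 15.09, 15.30 and 15.24 with added IL-1β. The 5 libraries with added IL-1β lay within 0.30 of each other on the log2 scale, against 1.97 with the inhibitor alone. Without line 3 the libraries with the inhibitor alone lay between 15.88 and 16.80. TAGLN did not pass in either fit with all lines and equal weights (log2 fold change -0.80, adjusted p = 0.117 from limma, and 0.0584 with the replicate block), but it was called without line 3 (-1.07, adjusted p = 0.00924). It too was called in 2 of the 15 fits with a library or a line left out, both lacking line 3 or its library with the inhibitor alone. In the others its adjusted p from limma reached 0.336.

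MYL9, the regulatory light chain of smooth muscle myosin, is the substrate through which ROCK and MLCK switch on contraction. It was at 14.35, 14.88, 13.15, 15.10 and 15.60 in lines 1 to 5 with the inhibitor alone and at 13.59, 13.78, 13.30, 14.02 and 13.87 with added IL-1β, lower in 4 lines and higher by 0.15 in line 3. Its log2 fold change was -0.91, with an adjusted p from limma of 0.133 without and 0.0305 with the replicate block. Without line 3 it was -1.17 (adjusted p = 0.0129). MYL9 was also called in 2 of the 15 fits with a library or a line left out, both lacking line 3 or its library with the inhibitor alone. In the others its adjusted p from limma reached 0.326.

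The other smooth muscle genes did not pass in either fit. CNN1, calponin 1, was at 13.84, 14.08, 13.29, 14.59 and 14.78 in lines 1 to 5 with the inhibitor alone and at 13.86, 13.51, 13.50, 14.21 and 13.37 with added IL-1β, and its groups overlapped widely (log2 fold change -0.43, 95% interval -1.03 to 0.17). MYH11, the smooth muscle myosin heavy chain, was at 12.54, 14.01, 10.13, 13.68 and 14.99 in lines 1 to 5 with the inhibitor alone and at 11.87, 12.24, 12.66, 13.56 and 12.22 with added IL-1β. MYH11 differed in opposite directions between the lines, by -2.77 in line 5 and by 2.53 in line 3, and its log2 fold change was -0.56 (95% interval -2.21 to 1.09). MYLK, which encodes the myosin light chain kinase MLCK, had a value of 11.14 in line 3 with the inhibitor alone, while the other 9 libraries lay between 12.92 and 13.82. Its log2 fold change was 0.33 over all lines and -0.22 without line 3, and it passed in neither fit. CALD1, caldesmon, was lower in 4 lines and higher by 0.26 in line 4 (log2 fold change -0.57, adjusted p = 0.121 from limma). Without the library of line 4 with added IL-1β, CALD1 was called (-0.72, adjusted p = 0.044).

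Smooth muscle genes are also expressed by mural cells of blood vessels, so markers of other cells were read beside them. Of 6 mural markers outside the list, RGS5 (log2 fold change -1.96) and CSPG4 (-1.84) fell at an adjusted p below 0.05, each in all 5 lines, and NOTCH3, MCAM, ABCC9 and PDGFRB did not pass. The share that fell was 33.3%, against 7.89% of all tested genes. The summed normalized counts of these 6 were 13832 to 24387 with the inhibitor alone and 8060 to 17315 with added IL-1β. None of the 6 was without reads in all libraries, and ABCC9 had none in line 2 in both groups and in line 4 with added IL-1β. Their part in the differences above was not tested. In such bulk libraries, fewer cells of a type and less RNA per cell cannot be told apart. The endothelial markers PECAM1, VWF, CDH5, KDR and TEK were at most at 5.83 in any library. The sixth, ERG, fell (-2.68), and the 6 together summed to 232 to 706 and 44.8 to 106 normalized counts in the groups. Of 7 leukocyte markers, PTPRC, CD3E, CD79A and CSF1R were at most at 4.20, CD68 rose (1.70) and the sums were 61.3 to 1768 and 171 to 1944. ITGAM lay between 3.91 and 5.80 in all libraries and did not pass. CD14 did not pass, but was without reads in lines 4 and 5 with the inhibitor alone and at 8.75 and 10.27 there with added IL-1β. In lines 1 and 2 it was already at 10.72 and 8.37 with the inhibitor alone, against 10.73 and 9.50 with added IL-1β. In line 3 it was without reads in both groups. The 7 skeletal muscle markers summed to at most 18.7 normalized counts. Of the 11 tenocyte markers found, 10 were tested, and log2 fold changes were below 0 for 8 and above 0 for 2. At an adjusted p below 0.05, 4 fell (SCX, MKX, TNC and COL5A1), 40% against 7.89% of all tested genes, and none rose. With the replicate block 6 fell (60%, against 11.3% of all tested genes) and none rose. The others were COL1A1 (-1.38, adjusted p = 0.0147 from limma) and COL1A2 (-1.28, adjusted p = 0.0169). DCN was higher in all 5 lines, by 0.043 to 1.99 on the log2 scale, without passing in either fit. TNMD was at the value of 0 reads in all 10 libraries.

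Among the actins, the smooth muscle gene ACTG2 and the cytoplasmic genes ACTB and ACTG1 did not pass in either fit. The coding sequences of the actins are nearly identical, so reads may be divided uncertainly between them. ACTB was at 17.37, 17.59, 16.67, 17.62 and 17.88 in lines 1 to 5 with the inhibitor alone and at 17.78, 17.86, 17.17, 17.40 and 17.88 with added IL-1β. Its log2 fold change was 0.19 (95% interval -0.48 to 0.87, adjusted p = 0.728 from limma), so a rise or fall of more than 1 on the log2 scale lay outside the interval. ACTG1 had a log2 fold change of 0.45 (95% interval -0.17 to 1.08), was higher in 4 lines and was level in line 4 (-0.0078). ACTG2, γ-actin of enteric smooth muscle, was at 14.29, 15.12, 11.51, 13.46 and 15.03 in lines 1 to 5 with the inhibitor alone and at 14.16, 16.97, 13.48, 12.95 and 16.46 with added IL-1β. It was higher in lines 2, 3 and 5 by 1.44 to 1.98 and lower in lines 1 and 4, and its interval was wide (log2 fold change 0.92, 95% interval -1.03 to 2.88).

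Of the widely expressed relatives of the smooth muscle genes, MYH10 was called. It encodes the heavy chain of non-muscle myosin IIB. It was at 13.14, 13.03, 12.89, 13.00 and 13.19 in lines 1 to 5 with the inhibitor alone and at 12.11, 11.82, 12.78, 12.95 and 11.53 with added IL-1β. Lines 1, 2 and 5 were lower by 1.03 to 1.66, while lines 3 and 4 differed by -0.11 and -0.047. This gave a log2 fold change of -0.81 ± 0.24 (estimate ± standard error, adjusted p = 0.0462 from limma, and 0.0465 with the replicate block). This call was at the threshold and was lost in 11 of the 15 fits with a library or a line left out. It was lost without any 1 library except those of lines 3 and 4 with added IL-1β (adjusted p = 0.061 to 0.112, log2 fold change -0.85 to -0.63), and without line 1 (adjusted p = 0.174), line 2 (0.173) or line 5 (0.169), with log2 fold changes of -0.75, -0.71 and -0.60. MYH9, the heavy chain of non-muscle myosin IIA, did not pass (log2 fold change -0.44, 95% interval -1.02 to 0.14). TAGLN2 was higher in all 5 lines without passing (0.33, adjusted p = 0.164, and 0.0728 with the replicate block). The log2 fold changes of CNN2, CNN3 and MYL6 were -0.079, -0.10 and -0.061.

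No tropomyosin passed the test. Tropomyosins lie along actin filaments and govern the access of myosin, and their 4 genes give rise to many isoforms that these gene-level values do not separate. The log2 fold change was -0.29 for TPM1, 0.12 for TPM2, 0.20 for TPM3 and -0.21 for TPM4, and the widest of the 95% intervals was that of TPM1, -0.92 to 0.33. TPM4 was at 15.88 in line 3 with the inhibitor alone, against 16.63 to 16.82 in the other 4 lines of that group.

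Of the crosslinkers of actin, FLNC fell. It encodes filamin C, the filamin of muscle. It was at 13.39, 13.71, 13.43, 13.92 and 13.79 in lines 1 to 5 with the inhibitor alone and at 12.66, 13.02, 13.40, 13.06 and 13.06 with added IL-1β. Lines 1, 2, 4 and 5 were lower by 0.69 to 0.85 and line 3 by 0.0284, so that line 3 with added IL-1β just reached the range of the other group. FLNC had a log2 fold change of -0.61 ± 0.15 (estimate ± standard error, adjusted p = 0.0199 from limma). Without the library of line 5 with the inhibitor alone the adjusted p was 0.0522 (log2 fold change -0.57), and without lines 2, 4 or 5 it was 0.0962 (-0.58), 0.063 (-0.54) and 0.0933 (-0.57). FLNA, the filamin of most cells, had a log2 fold change of -0.44 (95% interval -0.97 to 0.086), and the α-actinins ACTN1 and ACTN4 of -0.35 and -0.047, none of which passed.

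At the focal adhesion, FERMT2 fell. It encodes kindlin-2, which binds the tail of β integrins and helps to activate them. It was at 14.77, 14.54, 14.56, 14.83 and 14.83 in lines 1 to 5 with the inhibitor alone and at 14.18, 14.18, 14.12, 14.44 and 14.14 with added IL-1β. All 5 libraries with added IL-1β lay below all 5 with the inhibitor alone, and the difference was small, 1.41-fold (log2 fold change -0.49, standard error 0.11, adjusted p = 0.0152 from limma). Without line 1, 2 or 5 the adjusted p was 0.0898, 0.058 and 0.0899, with log2 fold changes of -0.47, -0.53 and -0.44. The other 9 focal adhesion genes did not pass either without or with the replicate block. VCL, vinculin, which links talin to actin, was lower in 4 lines and higher by 0.18 in line 3 (log2 fold change -0.45, adjusted p = 0.076). It was called without line 3 (-0.61, adjusted p = 0.0152) and with array weights (-0.56, adjusted p = 0.0142). Without line 3 so was PARVA, parvin α (-0.37, adjusted p = 0.0481). VCL and PARVA were each called in 2 of the 15 fits with a library or a line left out. ILK, the pseudokinase partner of parvin, and PDLIM7 were lower in all 5 lines without passing (-0.33 and -0.29), and ILK was called without the library of line 3 with the inhibitor alone (-0.44, adjusted p = 0.0351). TLN1, talin 1, had a log2 fold change of -0.30 and the focal adhesion kinase gene PTK2 of 0.19. The log2 fold changes of ZYX, PXN and PDLIM5 were 0.23, 0.019 and 0.044.

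Of the regulators of actin, RND3 and ROCK2 were called. RND3 binds ROCK1 and opposes RHOA. It was at 12.87, 12.78, 12.94, 11.98 and 12.55 in lines 1 to 5 with the inhibitor alone and at 13.80, 13.80, 13.39, 13.97 and 13.83 with added IL-1β. All 5 lines were higher, by between 0.45 in line 3 and 1.98 in line 4, and the groups did not overlap. RND3 had a log2 fold change of 1.13 ± 0.18 (estimate ± standard error, adjusted p = 0.00245 from limma). ROCK2, a kinase that acts downstream of RHOA, was at 11.81, 11.68, 11.81, 11.95 and 11.88 in lines 1 to 5 with the inhibitor alone and at 10.74, 10.95, 11.02, 11.32 and 10.82 with added IL-1β. It was lower in all 5 lines, and again the groups did not overlap. For ROCK2 the log2 fold change was -0.86 (standard error 0.11, 1.81-fold lower, adjusted p = 8.31e-04 from limma), the smallest adjusted p of the 46 genes. RND3, ROCK2 and DES were called in each of the 15 fits with a library or a line left out, with adjusted p-values of at most 0.0206, 0.0096 and 0.0325.

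RHOA itself lay between 13.84 and 14.39 in all libraries, with a log2 fold change of 0.017 (95% interval -0.27 to 0.30). ROCK1, the second ROCK gene, was lower in lines 1, 2 and 5 and within 0.11 in lines 3 and 4 (log2 fold change -0.28, adjusted p = 0.116 from limma). It was called without line 4 (-0.38, adjusted p = 0.0433), without the library of line 4 with added IL-1β (-0.36, adjusted p = 0.0284) and with array weights (-0.36, adjusted p = 0.0184). CFL1 encodes cofilin, which severs actin filaments, and LIMK1 the kinase that holds cofilin inactive. Neither passed, with log2 fold changes of 0.32 and -0.32.

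The transcriptional regulators differed from each other. SRF was at 11.52, 11.49, 11.60, 11.59 and 11.55 in lines 1 to 5 with the inhibitor alone and at 11.61, 11.54, 11.60, 11.55 and 11.42 with added IL-1β. The libraries of both groups lay within the same narrow range, with a 95% interval of its log2 fold change of -0.15 to 0.15. MYOCD, myocardin, was at 8.60, 10.82, 7.76, 10.68 and 9.93 in lines 1 to 5 with the inhibitor alone and at 7.26, 9.50, 6.96, 9.69 and 9.35 with added IL-1β. It was lower in all 5 lines, by 0.58 to 1.34, but the lines themselves spanned 3.07 on the log2 scale with the inhibitor alone. The log2 fold change of -1.01 did not pass without the replicate block (adjusted p = 0.391 from limma) and passed with it (adjusted p = 0.00284). MKL1, the older symbol of MRTFA, was at 11.10, 11.43, 11.18, 11.65 and 11.56 in lines 1 to 5 with the inhibitor alone and at 11.37, 11.92, 11.72, 12.11 and 11.83 with added IL-1β. It was higher in all 5 lines, by 0.26 to 0.55, with a log2 fold change of 0.41 and an adjusted p from limma of 0.095 without and 0.0116 with the replicate block. Without the library of line 1 with added IL-1β, MKL1 passed without the block (0.51, adjusted p = 0.0387).

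VIM, vimentin, the intermediate filament protein of mesenchymal cells, was at 17.80, 17.37, 17.72, 17.65 and 17.64 in lines 1 to 5 with the inhibitor alone and at 17.32, 17.15, 17.18, 17.43 and 16.94 with added IL-1β. It was lower in all 5 lines by 0.21 to 0.70, and did not pass (log2 fold change -0.43, adjusted p = 0.249 from limma, and 0.139 with the replicate block). Without the mean-variance trend VIM was called (adjusted p = 0.0432).

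Differences between 2 related genes within a library do not depend on the scaling between libraries, and 19 such pairs were compared between the groups with an exact two-sided permutation test. None of the 19 pairs (0) passed after Benjamini-Hochberg adjustment, while 8 had an unadjusted p below 0.05. With 5 libraries against 5 the smallest p is 0.00794. ROCK1 minus ROCK2 was 0.47 ± 0.15 with the inhibitor alone, against 1.05 ± 0.0978 (SD, n = 5 each, exact permutation p = 0.00794, adjusted p = 0.0646), and RND3 minus RHOA differed by 1.11 with the same p-values. ACTA2 minus ACTB differed by -1.21 and ACTA2 minus ACTG1 by -1.47, with exact permutation p-values of 0.0238 and 0.0159, both lower in all 5 lines. Line 3, in which ACTA2 itself was higher, thus had less ACTA2 relative to either cytoplasmic actin. MYL9 minus MYL6 (-0.85), ACTN1 minus ACTN4 (-0.31) and DES minus VIM (-2.54) were also lower in all 5 lines, and TAGLN minus TAGLN2 (-1.13) in 4 (exact permutation p from 0.0159 to 0.0317). Without the library of line 3 with the inhibitor alone, these 8 pairs passed the adjustment, with adjusted p-values of 0.0302 or 0.0377 from the exact permutation test. Without line 3 in both groups, and in each of the other 13 fits with a library or a line left out, 0 pairs passed. With a line left out there are 4 libraries per group, and the smallest p is larger than with 5 against 5. The 0 of those fits therefore says little about the pairs, since fewer splits limit how small an adjusted p can be.

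The share of the variation that lay between the tenocyte lines was close to that of all tested genes. Of the sum of squares over the 10 libraries, the lines took a median of 49.5% and the groups a median of 27.1% over the 46 genes, against 45.8% and 19.1% over all tested genes. PXN, paxillin, varied almost entirely by line (91.6%), with 12.05 to 12.14 in lines 2 and 5 and 10.91 to 11.38 in the other 3 in both groups. MYOCD had 83.6% between lines and 15.1% between groups. In contrast the groups took 88.2% for ROCK2, 80.3% for FERMT2 and 80.3% for RND3. The spread between lines was smaller with added IL-1β for 32 of the 46 genes (69.6%, against 42.8% of all tested genes). The median SD of the 8 smooth muscle contractile genes was 0.94 with the inhibitor alone and 0.39 with added IL-1β. With the inhibitor alone, line 3 was the lowest of the 5 lines for 35 of the 46 genes. Neither the difference in spread nor the part of line 3 in it was tested.

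**Figure D4:**
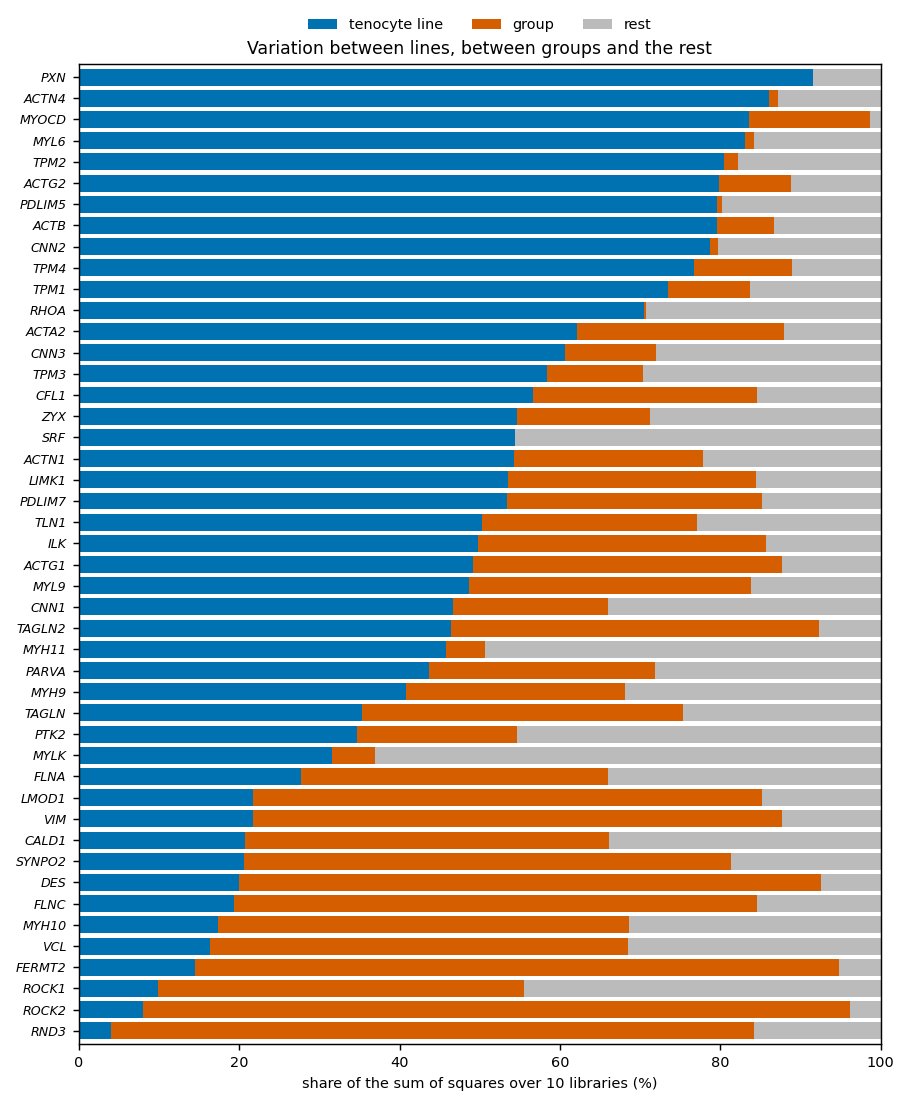
Share of the sum of squares over the 10 libraries that lay between the 5 tenocyte lines (blue), between the 2 groups (orange) and in the rest (grey), for each of the 46 genes. PXN, ACTN4 and MYOCD at the top vary mostly by line, and ROCK2 and RND3 at the bottom mostly by group.

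Other genes of the same pathways were read from lists of their own. Of 50 tested genes of the cytoskeleton outside the 46, 11 had an adjusted p below 0.05 (22%, against 15.5% of all tested genes), 10 of them lower. PPP1R14A, an inhibitor of myosin phosphatase, was at 7.99 ± 0.36 with the inhibitor alone and fell to 5.46 ± 0.44 with added IL-1β (SD, n = 5 each, adjusted p = 2.21e-04 from limma). SYNM, the intermediate filament protein synemin, a partner of desmin, fell by 2.96 on the log2 scale and the GTPase gene RHOB by 1.26. Of 43 other focal adhesion genes, 11 passed (25.6%), 9 lower and 2 higher. KANK1 (-1.83), LIMS2 (-1.27), whose product PINCH2 binds ILK, and TLN2 (-1.35), talin 2, fell in all 5 lines, and the adaptors BCAR1 (0.47) and GIT1 (0.33) rose in all 5 lines. The calls of BCAR1 and GIT1 were lost in 11 and 13 of the 15 fits with a library or a line left out, with adjusted p-values of up to 0.124 and 0.143. GIT1 was also not called without the mean-variance trend (adjusted p = 0.069 from limma). Of 20 further targets of SRF with MRTF, 5 passed (25%), all lower, among them FILIP1L (-1.07), THBS1 (-2.85) and SYNM. THBS1 lost the call without line 1, 2 or 5 (adjusted p = 0.052, 0.0719 and 0.0912 from limma) and FILIP1L without line 1 or 5 (0.0501 and 0.0575). With the replicate block 9 of the 20 passed (45%, against 22.2% of all tested genes), all lower (against 11.3% of all tested genes). Of 12 targets of SRF with TCF, 2 passed, IER3 (4.06) and FOSL1 (1.40), both higher. This share of 16.7% was close to the 15.5% of all tested genes. Log2 fold changes had a median of -0.71 among the targets with MRTF and of 0.46 among those with TCF. SYNM, NEXN, SMTN and other genes stand in more than 1 of these lists, so the lists are not independent.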

How the data were processed

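RNA from 10 libraries of equine tenocytes in 3D culture was sequenced, 5 with PF-06650833 alone and 5 with IL-1β plus PF-06650833. Per the labels and the paper, reads were assigned by the authors to transcripts of EquCab3.0 with Salmon (version 1.8), corrected for GC bias and summed per gene with tximport. The authors deposited log2 values normalized between libraries, whose shared lowest value of 3.433 and spacing are those of a variance-stabilizing transformation. Its name is not given in the sources used here. All 10 columns of values were used. Normalized counts were obtained by inverting it, and the approximate reads per library from the steps between low values.

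The fit by limma (3.58.1, in R 4.3.3) took the 17992 genes that exceeded the lowest value in 5 or more libraries, with eBayes and its trend option and no line term, since the methods name none, and p-values were adjusted over all of them. The line served as a block in a second fit, and the fits with a library or a line left out had no line term. Libraries of 1 line deviated together from their group means, with correlations across genes of 0.367 to 0.506 in the 5 pairs, and a mean of -0.107 over 20 pairs of different lines. The labels name the same 5 lines in both groups.

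The 46 genes and all lists were chosen with earlier results of these data known. Every gene of the list is accounted for, with values per library for genes called in either fit and for ACTA2, TAGLN, CNN1, MYH11, MYOCD, SRF and MRTFA. From the other lists up to 3 genes in each direction are named, by the smallest adjusted p, and 1 gene is not reported here. ACTB, ACTG2 and VIM are shown per library, and ERG, RGS5, CSPG4 and CD68 named, after their values had been seen. The script was tested on simulated data. The alternatives were other filters, log2(normalized count + 1) and (+ 0.5), quantile normalization, centring, other variance models, array weights, other thresholds and leaving out each library or line.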

Additional observations from a re-analysis of the deposited data

Results flagged for a closer look

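Over the 46 genes and 14 other genes, 1 library lay apart from the rest in 6 of 120 sets of 5 values, and about 6 would be so by chance. With added IL-1β, line 3 had CNN2 at 12.43 against 12.85 to 12.98 in the other lines, CNN3 at 13.87 against 14.22 to 14.32, and RND3 at 13.39 against 13.80 to 13.97. With the inhibitor alone, line 3 had TPM4 at 15.88 against 16.63 to 16.82. FERMT2 was at 14.44 in line 4 with added IL-1β, against 14.12 to 14.18. Outside the 46 genes, FILIP1L was at 9.64 in line 5 with added IL-1β, against 9.90 to 9.94. Of these 6 groups, 4 were set apart by line 3.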

How the results depend on the processing

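The sign of the log2 fold change held in every fit for 37 of the 46 genes, and of the 8 called genes 3 (DES, ROCK2 and RND3) were called in every fit. With array weights 13 of the 46 genes, 18 other cytoskeleton genes, 9 targets of SRF with MRTF and 4231 of all genes had an adjusted p below 0.05 (the cause was not tested). Of the 46 these were the 8 and TAGLN, MYL9, CALD1, VCL and ROCK1 (adjusted p = 0.0401, 0.0404, 0.0405, 0.0142 and 0.0184 from limma). With the replicate block the targets of SRF with MRTF numbered 9 (45%, against 22.2% of all tested genes), and the block changed no call of the 46 genes other than those given above. With the threshold of differential expression at 0.01 for the adjusted p, 2 of the 46 genes and 719 of all genes were called. MYH10 was not called with all genes that are not constant, after centring or without the trend (adjusted p = 0.0515, 0.0526 and 0.0622 from limma), and VIM was called without the trend (0.0432).

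Over the 15 fits with a library or a line left out, 3 to 13 of the 46 genes had an adjusted p below 0.05 and 2 to 7 were differentially expressed, the most in both cases without line 3 or its library with the inhibitor alone. For all genes these counts were 1268 to 3268 and 762 to 1422. They were 6 to 15 for other cytoskeleton genes, 5 to 12 for other focal adhesion genes, 1 to 8 for targets of SRF with MRTF, 2 to 4 for targets with TCF and 0 to 8 for the pairs. With replicate numbers as pairs, the replicate block of exact sign flips left 0 of 19 pairs; 5 lines cannot reach 0.05 there. The sign turned in some of these fits for 9 genes near 0, with log2 fold changes of -0.29 to 0.0638 for CNN2, -0.22 to 0.042 for MYL6, -0.22 to 0.55 for MYLK, -0.15 to 0.27 for TPM2, -0.15 to 0.0555 for ACTN4, -0.13 to 0.18 for PXN, -0.0902 to 0.14 for PDLIM5, -0.0257 to 0.0295 for SRF and -0.0529 to 0.0844 for RHOA. PXN was also below 0 under quantile normalization (-0.012) and array weights (-0.025), and SRF above 0 after centring (0.029) and with array weights (0.012). Quantile normalization left 33 of the 46 genes below 0 and centring 31, against 32.

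With added IL-1β, DES had the fewest reads of the 46 genes, and the deposited scale understates its fold change. In the fit without the block, the 95% intervals of ACTA2, ACTG2, MYH11 and MYOCD include differences of over 2 on the log2 scale. None of these genes was called in that fit with all libraries, and the spread between the 5 lines enters these intervals. With the replicate block the intervals were -1.64 to -0.38 for ACTA2 and -1.33 to -0.68 for MYOCD. They were 0.035 to 1.81 for ACTG2 and -2.07 to 0.95 for MYH11, neither of which was called with the block.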
